A study of Mus musculus with 8 samples.

Results

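The genes for the chains and companion proteins of MHC class II were followed through 4 sorted populations of medullary thymic epithelial cells (mTEC), by ATAC-seq, an assay in which inserted transposase adapters report accessible chromatin. The 10 genes were H2-Aa, H2-Ab1, H2-Eb1, H2-Eb2, H2-DMa, H2-DMb1, H2-DMb2, H2-Oa, H2-Ob and Cd74, taken by gene name from the authors' merged and annotated peak table. That table assigned 35 of its 74090 peaks to them, and they are 10 of its 18215 named genes. Each gene was described by its single peaks and by the sum of its peaks within 10 kb of the transcription start site (TSS), which took in 28 of the 35 peaks. At that limit, the H2-DMb2 peak at -9921 bp was just inside and the H2-Ob peak at 10017 bp just outside. Of the 35 peaks, 33 reached 10 tags per 10000000 in at least 2 libraries and were tested, as were all 10 gene sums. The H2-Oa peak at -23320 bp and the H2-DMa peak at 6527 bp were not tested.

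All cells came from the thymus of C57BL/6 mice, and all were sorted as CD45- and Epcam+, that is, without the common protein of blood cells and with a protein of epithelial cells. mTEC-II cells were MHCIIhigh, mTEC-III cells were Ly6D+, mTEC-I cells were MHCIIlow and Itgb4+, and mTEC-IV cells were MHCIIlow, Itgb4- and L1cam+. The label of mTEC-III names no level of MHCII. Each population had 2 libraries, and neither age, sex nor the number of mice behind a library is stated, so the p-values speak only of the spread from library to library, which can be technical. Class II protein was part of 3 of the 4 gates, and a difference at these genes between MHCIIhigh and MHCIIlow cells is therefore not independent of the sort. In sorted bulk samples, fewer cells with an open site and less opening per cell cannot be told apart.

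MHC class II molecules are pairs of an alpha and a beta chain that carry peptides from endosomes to the cell surface and present them to CD4+ T cells. In the thymic medulla, epithelial cells use them to test developing T cells against self peptides. H2-Aa and H2-Ab1 encode the alpha and beta chain of I-A. H2-Eb1 encodes the beta chain of I-E, for which C57BL/6 mice lack a working alpha chain gene. Cd74 encodes the invariant chain that guards new class II molecules, H2-DM edits their peptides, and H2-DO, encoded by H2-Oa and H2-Ob, restrains H2-DM. Class II promoters share an X box and a Y box, bound by RFX and NF-Y, which together recruit the coactivator Ciita.

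Promoter windows of 300 bases, from 250 before to 50 after the start, were read from RefSeq on GRCm38.p6, where 8 of the 10 genes had 9 windows. H2-Ab1 and Cd74 had no entry. The 4 windows below are shown to compare paralogues, H2-DMb2 with its neighbour H2-DMb1 and H2-Eb1 with H2-Eb2. Each holds an X box, with at most 1 mismatch, followed by the Y box, as the H2-Ob window, not shown, does too. They run 5′ to 3′ in lower case, and capitals mark the best X box match and the Y box letters ATTGG or CCAAT.
H2-DMb2 chr17:34144999-34145298 + strand: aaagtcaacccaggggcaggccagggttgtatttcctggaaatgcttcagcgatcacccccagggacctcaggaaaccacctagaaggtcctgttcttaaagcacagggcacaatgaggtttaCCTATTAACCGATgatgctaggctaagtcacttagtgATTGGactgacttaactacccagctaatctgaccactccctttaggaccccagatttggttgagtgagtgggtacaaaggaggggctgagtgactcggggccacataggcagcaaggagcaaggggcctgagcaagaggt
H2-DMb1 chr17:34152941-34153240 + strand: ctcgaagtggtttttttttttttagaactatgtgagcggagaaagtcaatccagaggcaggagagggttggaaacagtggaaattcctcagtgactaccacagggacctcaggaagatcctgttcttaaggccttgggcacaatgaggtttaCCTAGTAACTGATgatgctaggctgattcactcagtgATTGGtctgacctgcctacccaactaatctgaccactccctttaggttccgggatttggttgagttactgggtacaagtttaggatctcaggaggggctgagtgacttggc
H2-Eb1 chr17:34305617-34305916 + strand: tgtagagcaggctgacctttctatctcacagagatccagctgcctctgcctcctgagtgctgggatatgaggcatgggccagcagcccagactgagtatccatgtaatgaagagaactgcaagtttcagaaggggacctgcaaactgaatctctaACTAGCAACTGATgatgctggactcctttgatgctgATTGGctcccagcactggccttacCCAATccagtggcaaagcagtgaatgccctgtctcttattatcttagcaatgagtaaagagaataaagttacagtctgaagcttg
H2-Eb2 chr17:34325425-34325724 + strand: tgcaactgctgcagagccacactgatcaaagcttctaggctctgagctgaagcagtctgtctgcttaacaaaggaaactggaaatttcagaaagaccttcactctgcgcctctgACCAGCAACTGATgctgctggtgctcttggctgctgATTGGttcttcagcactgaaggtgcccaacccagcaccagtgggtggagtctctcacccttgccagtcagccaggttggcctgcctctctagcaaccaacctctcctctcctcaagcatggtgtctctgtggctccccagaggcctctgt

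The X box searched has 13 positions with 9 fixed bases, which read CC, any base, AG, any 2 bases, AC, any base and GAT, and both strands were searched. An exact X box stood in 1 of the 9 windows, that of H2-DMb1, against 0.161% of 32851 RefSeq promoters of the same length. The H2-DMb2, H2-Eb1, H2-Eb2 and H2-Ob windows held one with 1 mismatch. An X box with up to 2 mismatches followed after 10 to 30 bases by ATTGG, a spacing chosen after seeing the data, stood in 5 of the 9 windows and in 0.956% of all promoters. The gap was 24 bases in H2-DMb2 and H2-DMb1, 23 in H2-Eb1 and H2-Eb2, and 21 in H2-Ob. Alone, an X box with up to 2 mismatches stood in 7 of the 9 windows and 51.4% of all promoters, and the Y box letters in 8 of the 9 windows and 37.4% of all promoters. These are letters in a window, not shown to be bound.

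The libraries held between 3606436 and 10374623 tags. Merged peaks took 8.44% and 11% of the tags in mTEC-III, against 14.2% to 19.7% in the other libraries. Values are tags per 10000000, rescaled with TMM factors and called scaled tags. Differences are on the log2 scale of (scaled tags + 1), the first population minus the second, with their standard error. A call is an adjusted p under 0.05 by limma, corrected over all peaks or all genes tested.

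The share of all read ends in peaks that fell into the 35 class II peaks was taken next. It scales each library to its own read ends in peaks, not to its total tags. It was 0.143% and 0.135% for mTEC-II libraries, 0.130% and 0.124% for mTEC-III libraries, 0.102% and 0.0979% for mTEC-I libraries, and 0.0812% and 0.0734% for mTEC-IV libraries. No populations overlapped. MHCIIhigh cells lay highest, Ly6D+ cells close below, and L1cam+ cells lowest. These shares rest on 1128 to 3459 read ends per library. Of these, mTEC-III libraries held 1128 and 1780, from 5131245 and 6537908 total tags. mTEC-I libraries held 3459 and 2714, from 8574918 and 7033324, and mTEC-IV libraries 1767 and 2166, from 6010018 and 10374623. Set against total tags, mTEC-III thus lay below mTEC-I and overlapped mTEC-IV.

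**Figure D1:**
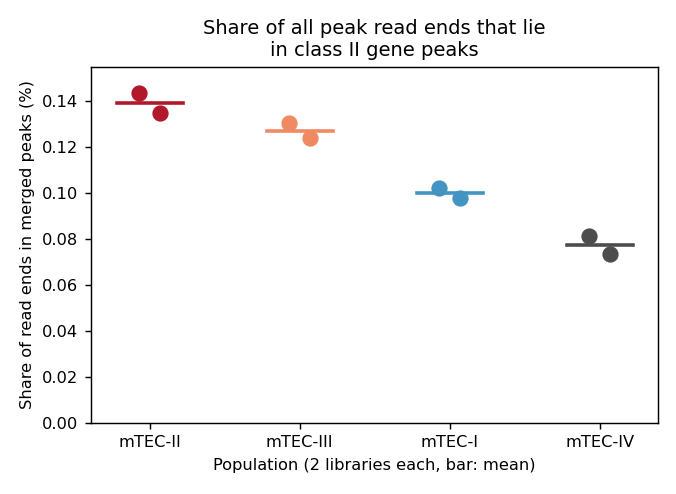
Share of the read ends in all merged peaks that lay in the 35 class II peaks (y axis, percent, from 0) in each library (points) of the 4 populations (x axis), with bars at the means. The shares run between 0.135% and 0.143% for mTEC-II and between 0.0734% and 0.0812% for mTEC-IV, with mTEC-III and mTEC-I between them.

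Accessibility near 7 of the 10 genes differed among the 4 populations by limma's F test, as it did near 29.8% of the 15034 genes tested. They were both I-A genes, both E beta genes, H2-DMb2, H2-Oa and Cd74. The same 7 were called higher in MHCIIhigh mTEC-II than in the mean of the MHCIIlow populations mTEC-I and mTEC-IV, here called the gate contrast, and none was called lower (all genes: 4.35% higher, 4.66% lower). The median difference was 0.61 over the 10 genes and -0.05 over all genes. H2-DMa, H2-DMb1 and H2-Ob were not called. In the gate contrast 4 of the 7, H2-Aa, H2-Ab1, H2-Eb1 and H2-Eb2, were called whichever library was left out.

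Both I-A genes were lower in the mean of the MHCIIlow populations than in mTEC-II, and lowest in mTEC-IV. Against mTEC-I alone, mTEC-II was not called higher at H2-Aa (0.39 ± 0.139, adjusted p = 0.0689) or H2-Ab1 (0.38 ± 0.140, adjusted p = 0.082). Under the authors' scaling to total tags these differences were 0.17 and 0.15. H2-Aa, the alpha chain, had 338 and 296 scaled tags in mTEC-II cells, 310.0 and 262 in mTEC-III cells, 240.4 and 240.2 in mTEC-I cells and 180.1 and 153 in mTEC-IV cells. mTEC-II and mTEC-III overlapped, mTEC-I lay below both, and mTEC-IV below that. Its gate difference was 0.66 ± 0.120 (adjusted p = 0.00188), and mTEC-I exceeded mTEC-IV by 0.53 ± 0.139 (adjusted p = 0.00851), a call lost without either mTEC-I library or the second mTEC-IV library (0.41 to 0.53, adjusted p = 0.0673 to 0.127). H2-Ab1, the beta chain, had 315 and 278 scaled tags in mTEC-II cells, 330 and 269 in mTEC-III cells, 237 and 217 in mTEC-I cells and 142 and 133 in mTEC-IV cells. Its populations lay in the same order, with mTEC-II inside the range of mTEC-III. The gate difference of H2-Ab1 was 0.74 ± 0.121 (adjusted p = 0.000931), and mTEC-I exceeded mTEC-IV by 0.72 ± 0.140 (adjusted p = 0.000883), also without each library in turn.

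At the E beta genes, mTEC-I overlapped mTEC-IV. H2-Eb1 had 492 and 436 scaled tags in mTEC-II cells, 398 and 418 in mTEC-III cells, 305 and 303 in mTEC-I cells and 322 and 265 in mTEC-IV cells. mTEC-II lay highest, mTEC-III below it, and mTEC-I inside the range of mTEC-IV. Its gate difference was 0.63 ± 0.108 (adjusted p = 0.0012), and mTEC-II exceeded mTEC-I by 0.61 ± 0.124 (adjusted p = 0.00329). H2-Eb2, a beta chain gene related to H2-Eb1, had 96.8 and 95.2 scaled tags in mTEC-II cells, 108 and 99.8 in mTEC-III cells, 43.3 and 35.2 in mTEC-I cells and 53.0 and 33.3 in mTEC-IV cells. All mTEC-II and mTEC-III libraries lay above all mTEC-I and mTEC-IV libraries. The gate difference of H2-Eb2 was 1.22 ± 0.205 (adjusted p = 0.00114), and mTEC-III exceeded mTEC-I by 1.39 ± 0.237 (adjusted p = 0.000685). Between mTEC-I and mTEC-IV, H2-Eb1 differed by 0.06 ± 0.124 (adjusted p = 0.787) and H2-Eb2 by -0.10 ± 0.237 (adjusted p = 0.797). Whether this contrast differs between I-A and E beta genes was not tested.

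**Figure D2:**
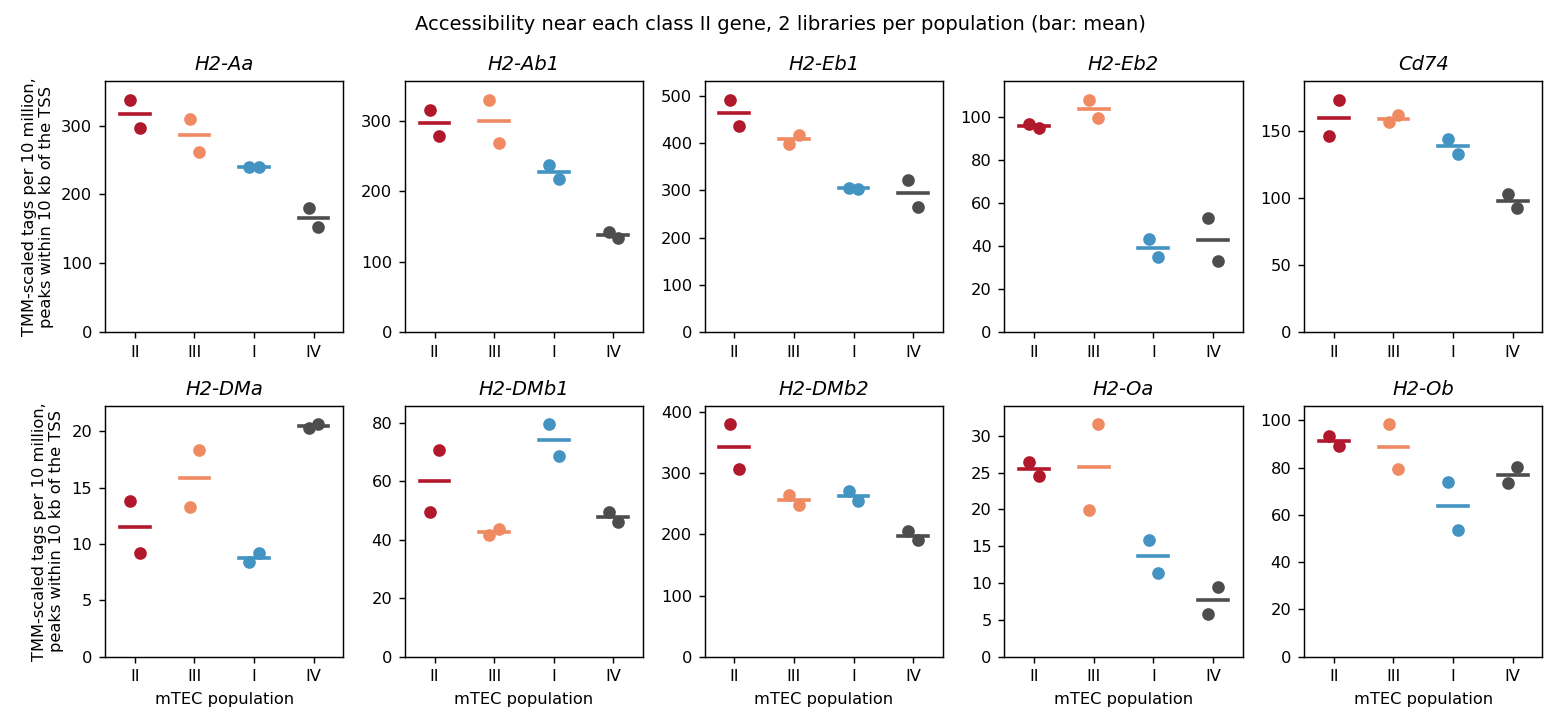
Sum of the peaks within 10 kb of the TSS (y axis, TMM-scaled tags per 10000000, from 0, own scale per gene) for each of the 10 class II genes in mTEC-II, mTEC-III, mTEC-I and mTEC-IV (x axis). Points are the 2 libraries and bars their mean. H2-Aa and H2-Ab1 step down at mTEC-I and again at mTEC-IV, H2-Eb1 and H2-Eb2 overlap in mTEC-I and mTEC-IV, and H2-DMa and H2-DMb1 follow other orders.

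Cd74 and the H2-DO genes gave calls that hung on single libraries, or none. Cd74, the invariant chain, had 146 and 174 scaled tags in mTEC-II cells, 157 and 162 in mTEC-III cells, 145 and 133 in mTEC-I cells and 103 and 92.5 in mTEC-IV cells. mTEC-III lay inside the range of mTEC-II, mTEC-I just below it, and mTEC-IV lowest. Its gate difference of 0.45 ± 0.137 (adjusted p = 0.0445) was lost without either mTEC-II library, either mTEC-I library or either mTEC-IV library (0.31 to 0.59, adjusted p = 0.0574 to 0.308). H2-Oa, the alpha chain of H2-DO, had 26.5 and 24.6 scaled tags in mTEC-II cells, 19.99 and 31.6 in mTEC-III cells, 15.9 and 11.4 in mTEC-I cells and 5.81 and 9.52 in mTEC-IV cells. All of it came from the promoter peak, at -52 bp. mTEC-II lay inside the range of mTEC-III, and mTEC-IV lowest. The gate difference of H2-Oa, 1.26 ± 0.374 (adjusted p = 0.0399), was lost without either mTEC-II library, either mTEC-I library or the first mTEC-IV library (1.10 to 1.37, adjusted p = 0.0738 to 0.176). H2-Ob, the beta chain, had 93.3 and 89.1 scaled tags in mTEC-II cells, 98.3 and 79.4 in mTEC-III cells, 73.8 and 53.7 in mTEC-I cells and 73.3 and 80.4 in mTEC-IV cells. mTEC-IV overlapped both mTEC-III and mTEC-I there, and the gate difference of H2-Ob was 0.39 ± 0.180 (adjusted p = 0.197).

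The 3 H2-DM genes each had an order of their own. H2-DMb1, a beta chain, had 49.6 and 70.7 scaled tags in mTEC-II cells, 41.7 and 43.8 in mTEC-III cells, 79.6 and 68.8 in mTEC-I cells and 49.4 and 46.0 in mTEC-IV cells, all from its promoter peak at -101 bp. mTEC-I and 1 mTEC-II library were high and mTEC-III lowest. mTEC-III minus mTEC-I was -0.78 ± 0.240 (adjusted p = 0.033), a call lost without either mTEC-I library, either mTEC-IV library or the first mTEC-III library (-0.88 to -0.68, adjusted p = 0.0517 to 0.25). H2-DMa, the alpha chain, had 13.8 and 9.21 scaled tags in mTEC-II cells, 13.3 and 18.3 in mTEC-III cells, 8.40 and 9.21 in mTEC-I cells and 20.3 and 20.6 in mTEC-IV cells. It was highest in mTEC-IV, with a gate difference of -0.24 ± 0.388 (adjusted p = 0.768), and no contrast of it was called. H2-DMb2, the other beta chain, had 380.3 and 307 scaled tags in mTEC-II cells, 265 and 248 in mTEC-III cells, 272 and 254 in mTEC-I cells and 206 and 191 in mTEC-IV cells. mTEC-II lay highest, mTEC-III and mTEC-I overlapped, and mTEC-IV lay lowest. Its gate difference, 0.58 ± 0.116 (adjusted p = 0.00363), was lost without the first mTEC-II library (0.45, adjusted p = 0.0738).

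For H2-DMa and H2-DMb2 the values turned on which gene a peak was given to. The nearest start assigned the peaks at chr17:34272266-34272614 and chr17:34276390-34276530 (mm9) to H2-DMb2, at -9921 and -5901 bp, while the same annotation placed the first in the 5′ UTR and the second at the end of the H2-DMa transcript. With both given to H2-DMa, a step added after seeing the data, H2-DMb2 had 133 and 89.1 scaled tags in mTEC-II cells, 78.3 and 82.5 in mTEC-III cells, 59.7 and 48.8 in mTEC-I cells and 18.2 and 18.0 in mTEC-IV cells. No populations then overlapped, and mTEC-IV lay far below the others. The gate difference of H2-DMb2 became 1.76 ± 0.213 (adjusted p = 8.45e-05), and mTEC-II exceeded mTEC-IV by 2.52 ± 0.246 (adjusted p = 6.07e-06). H2-DMa then had 262 and 227 scaled tags in mTEC-II cells, 199.98 and 184 in mTEC-III cells, 221 and 215 in mTEC-I cells and 208 and 194 in mTEC-IV cells. mTEC-II lay highest, mTEC-III and mTEC-IV overlapped, and the gate difference of H2-DMa was 0.22 ± 0.117 (adjusted p = 0.26). How reads that match both of a pair of paralogues were placed, H2-DMb1 and H2-DMb2 or H2-Eb1 and H2-Eb2, is not given in the sources used here.

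Over the 6 pairs of populations, most gene calls set mTEC-IV below another population. mTEC-II was higher than mTEC-IV at the 7 genes of the gate contrast and lower at none (all genes: 5.0% higher, 8.25% lower). Of these, H2-Eb2 was lost without the second mTEC-IV library (0.85, adjusted p = 0.0787), H2-Oa without either mTEC-II library or the first mTEC-IV library (1.33 to 1.69, adjusted p = 0.0619 to 0.19) and Cd74 without the second mTEC-II library or the second mTEC-IV library (0.57 to 0.62, adjusted p = 0.0612 to 0.0843). Under the authors' scaling to total tags, mTEC-II was called higher than mTEC-IV at 5 members. The calls at H2-Eb1 (0.80, adjusted p = 0.0892) and Cd74 (0.84, adjusted p = 0.0613) were lost. With TMM scaling, mTEC-III was higher than mTEC-IV at 6, the same 7 less H2-DMb2, and lower at none (all genes: 3.90% higher, 8.17% lower). Here H2-Aa and H2-Ab1 were called without each library. H2-Eb1 was lost without either mTEC-III library or the second mTEC-IV library (0.34 to 0.51, adjusted p = 0.0547 to 0.191), H2-Eb2 without the second mTEC-IV library (0.96, adjusted p = 0.0557), H2-Oa without the second mTEC-III library or the first mTEC-IV library (1.31, adjusted p = 0.0715 to 0.213) and Cd74 without either mTEC-IV library (0.62 to 0.78, adjusted p = 0.0522 to 0.097). mTEC-I was higher than mTEC-IV at 4, H2-Aa, H2-Ab1, H2-DMb2 and Cd74, and lower at none (all genes: 8.66% higher, 13.6% lower). Under the authors' scaling H2-DMb2 was not called in this pair (0.77, adjusted p = 0.0576) and H2-DMb1 was called higher (0.98, adjusted p = 0.0302). The H2-DMb2 call was lost without either mTEC-I library or either mTEC-IV library (0.35 to 0.46, adjusted p = 0.0966 to 0.229) and the Cd74 call without either mTEC-I library or either mTEC-IV library (0.42 to 0.58, adjusted p = 0.0854 to 0.218).

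Against mTEC-I, calls fell mostly on the E beta genes. mTEC-II was higher at H2-Eb1 and H2-Eb2 and lower at none (all genes: 6.50% higher, 5.71% lower), and both were called without each library. Under the authors' scaling to total tags H2-Eb2 was still called (1.05, adjusted p = 0.0255) and H2-Eb1 was not (0.38, adjusted p = 0.523). With TMM scaling, mTEC-III was higher at the same 2 genes and lower at H2-DMb1 (all genes: 7.35% higher, 8.49% lower). The H2-Eb1 call there, 0.42 ± 0.124 (adjusted p = 0.0259), was lost without either mTEC-III library or either mTEC-I library (0.39 to 0.46, adjusted p = 0.0714 to 0.156).

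Between mTEC-II and mTEC-III none of the 10 genes was called by limma, edgeR or DESeq2 (all genes by limma: 0% higher, 0.00665% lower). In limma, 1 gene had an unadjusted p under 0.05, H2-DMb2 at 0.41 ± 0.134 (adjusted p = 0.244). Contrasts with mTEC-III turned on the scaling. Under the authors' scaling to total tags, the median of mTEC-II minus mTEC-III was 0.78 for the members and 0.80 for all genes, and 7 members were called higher. For mTEC-III minus mTEC-I the medians became -0.58 for the members and -0.99 for all genes, where TMM gave 0.41 and -0.03. For mTEC-III minus mTEC-IV they became -0.03 and -0.79, where TMM gave 0.59 and -0.18. Under the authors' scaling, no member was called higher in mTEC-III than in mTEC-I or mTEC-IV, so that both higher calls over mTEC-I and all 6 over mTEC-IV were lost. Instead 4 members were called lower in mTEC-III than in mTEC-I, H2-Aa (-0.74, adjusted p = 0.0211), H2-DMb1 (-1.75, adjusted p = 1.78e-05), H2-DMb2 (-1.02, adjusted p = 0.00216) and Cd74 (-0.78, adjusted p = 0.016), and none was called lower than in mTEC-IV. H2-Eb1 turned to -0.56 and -0.14 in these pairs. In the gate contrast the medians were 0.56 and -0.10, and 1 of the 10 genes, H2-Eb2, was called under that scaling.

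**Figure D3:**
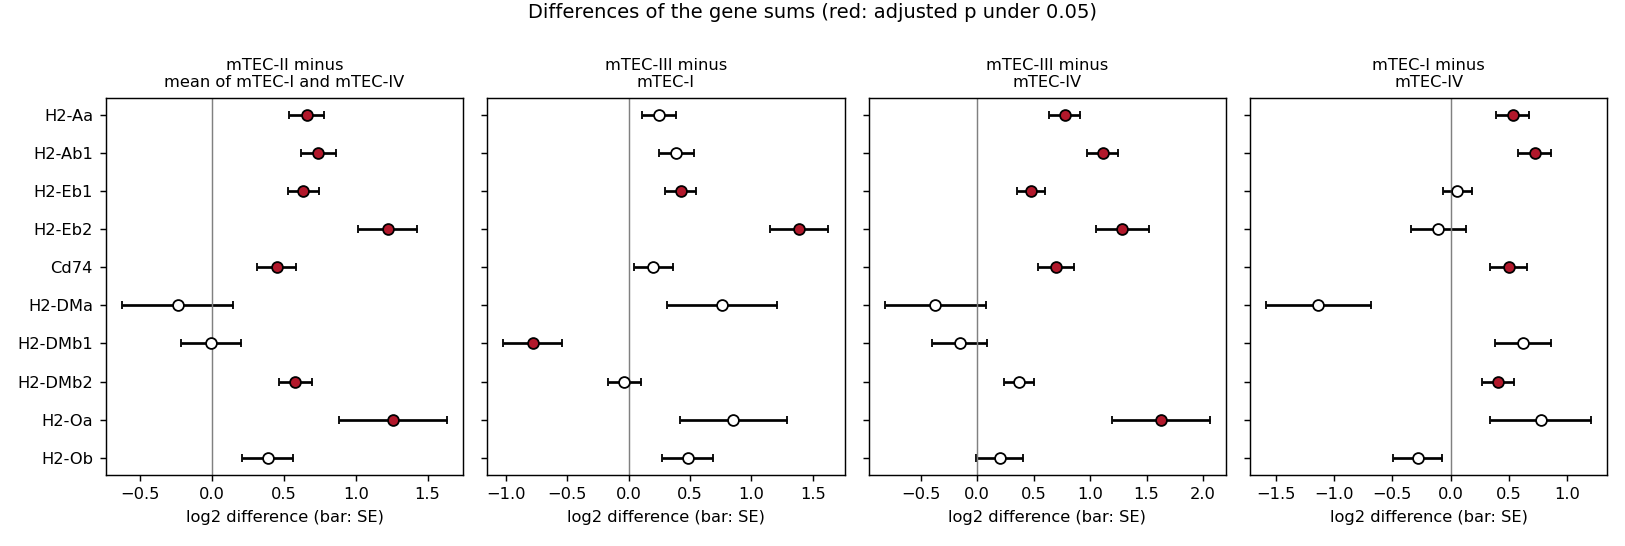
Log2 differences of the gene sums (x axis, log2 of scaled tags + 1, bar: standard error) for the 10 class II genes (y axis) in 4 contrasts, mTEC-II minus the mean of mTEC-I and mTEC-IV, mTEC-III minus mTEC-I, mTEC-III minus mTEC-IV and mTEC-I minus mTEC-IV. Red points have an adjusted p under 0.05. H2-Eb2 lies at 1.22, 1.39 and 1.29 in the first 3 panels and at -0.10 in the last. The values shown are TMM-scaled. Under the authors' scaling no higher call of the mTEC-III panels remains, and H2-Eb1 turns below 0 in both.

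Single peaks showed where within each gene the differences lay. By limma's F test 22 of the 33 tested peaks differed among the populations, as did 49.3% of all 58817 peaks tested. In the gate contrast 16 were higher in mTEC-II and 1 was lower (all peaks: 9.38% higher, 6.25% lower). The number called fell to 4 without the first mTEC-II library, to 8 without the second and to 11 without the first mTEC-I library. Called without each library were 3, the promoter peaks of Cd74 and H2-DMb2 and the H2-Ab1 peak at -5365 bp. Of the 35 peaks, 28.6% lay within 1 kb of a TSS, against 24.1% of all peaks, and 45.7% were intergenic, against 37.3%.

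**Figure D4:**
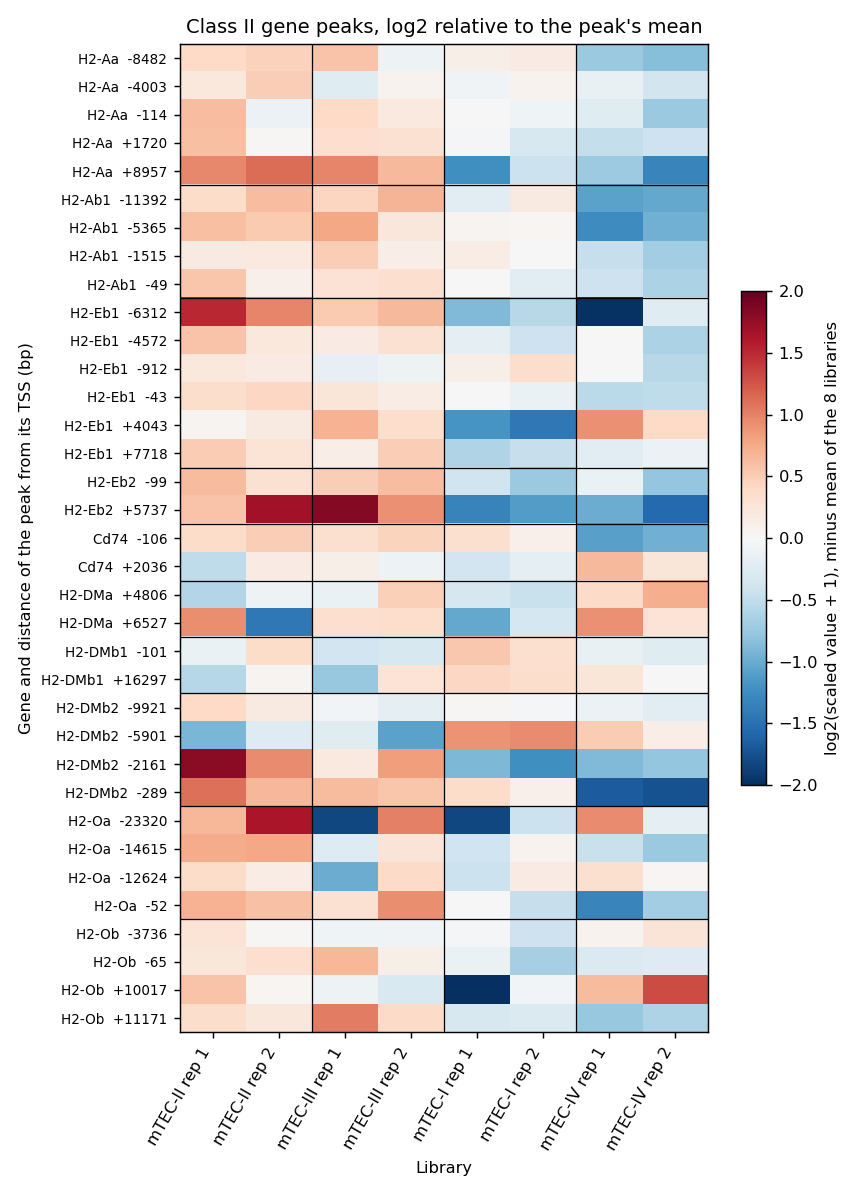
The 35 class II peaks (rows, by gene and by distance from the TSS in bp) in the 8 libraries (columns). Colour gives log2(scaled tags + 1) minus the mean of the 8 libraries for that peak, from -2 in blue to 2 in red. The H2-DMb2 peak at -289 and the Cd74 peak at -106 are blue in mTEC-IV, the H2-Eb1 peak at 4043 is blue in mTEC-I, and the H2-DMb2 peak at -5901 is red in mTEC-I. The H2-Oa peak at -23320 and the H2-DMa peak at 6527 were not tested.

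Of the promoter peaks, that of H2-DMb2 had the largest difference in the gate contrast, 1.62 ± 0.222 (adjusted p = 0.000507). This peak, at chr17:34281972-34282173 (mm9), had 89.9 and 66.1 scaled tags in mTEC-II cells, 65.0 and 61.1 in mTEC-III cells, 53.9 and 44.4 in mTEC-I cells and 12.3 and 11.6 in mTEC-IV cells. The populations did not overlap, and mTEC-IV lay far below the other 3. mTEC-II exceeded mTEC-IV by 2.59 ± 0.256 (adjusted p = 1.60e-05), and mTEC-I exceeded mTEC-IV by 1.94 ± 0.256 (adjusted p = 5.46e-05), both without each library too. The promoter peak of the paralogue H2-DMb1, whose window printed above holds the exact X box, gave 0.31 ± 0.235 (adjusted p = 0.378) for mTEC-II minus mTEC-IV. The difference between these 2 promoters was not tested.

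Away from promoters, 3 peaks had the largest gate differences of the 33, and each call hung on 1 mTEC-II library. Among the authors' peak lists of single libraries, each of the 3 was found only in the list of that same library. The H2-Aa peak at 8957 bp, given below, was found only in that of the second mTEC-II library. A higher value in mTEC-II was thus favoured by how these peaks were found, and their gate calls are no independent evidence. The H2-DMb2 peak at -2161 bp, chr17:34280136-34280264, intergenic, had 42.6 and 23.05 scaled tags in mTEC-II cells, 13.3 and 21.4 in mTEC-III cells, 5.75 and 4.34 in mTEC-I cells and 5.81 and 6.34 in mTEC-IV cells. mTEC-II lay highest, mTEC-III below it, and both MHCIIlow populations lowest. The gate difference was 2.31 ± 0.429 (adjusted p = 0.00243), lost without the first mTEC-II library (1.90, adjusted p = 0.0653). The H2-Eb1 peak at -6312 bp, chr17:34436436-34436564, intergenic, had 50.7 and 34.6 scaled tags in mTEC-II cells, 25.01 and 27.5 in mTEC-III cells, 8.84 and 11.4 in mTEC-I cells and 3.63 and 14.3 in mTEC-IV cells. It showed the same order, with mTEC-IV spread around mTEC-I, and a gate difference of 2.154 ± 0.422 (adjusted p = 0.00333), lost without the first mTEC-II library (1.90, adjusted p = 0.0795). The H2-Eb2 peak at 5737 bp, chr17:34468287-34468427 in intron 1, had 12.7 and 28.4 scaled tags in mTEC-II cells, 31.7 and 16.3 in mTEC-III cells, 2.65 and 3.26 in mTEC-I cells and 3.63 and 2.12 in mTEC-IV cells. mTEC-II and mTEC-III overlapped, well above the others, and the gate difference of 2.37 ± 0.517 (adjusted p = 0.00616) was lost without the second mTEC-II library (1.80, adjusted p = 0.097).

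At the I-A genes the promoter peaks and 2 distal peaks were lowest in mTEC-IV. The H2-Ab1 peak at -5365 bp, chr17:34394630-34394985, intergenic, had 116 and 111 scaled tags in mTEC-II cells, 132 and 89.6 in mTEC-III cells, 79.6 and 78.1 in mTEC-I cells and 31.2 and 38.6 in mTEC-IV cells. mTEC-II lay inside the range of mTEC-III, mTEC-I below and mTEC-IV lowest. mTEC-II exceeded mTEC-IV by 1.68 ± 0.220 (adjusted p = 0.000111), also without each library. The H2-Ab1 promoter peak, at -49 bp, chr17:34400041-34400206, had 118 and 86.0 scaled tags in mTEC-II cells, 98.3 and 102 in mTEC-III cells, 79.6 and 68.3 in mTEC-I cells and 59.5 and 51.3 in mTEC-IV cells. mTEC-III lay inside the range of mTEC-II, and mTEC-IV lowest. The same difference there was 0.85 ± 0.210 (adjusted p = 0.00601), lost without the first mTEC-II library or the second mTEC-IV library (0.66 to 0.75, adjusted p = 0.0611 to 0.0863). The H2-Aa peak at -8482 bp, chr17:34433090-34433307, intergenic, had 104 and 108 scaled tags in mTEC-II cells, 117 and 73.3 in mTEC-III cells, 85.3 and 87.8 in mTEC-I cells and 46.5 and 43.4 in mTEC-IV cells. mTEC-III spread around mTEC-II and mTEC-I there. mTEC-II exceeded mTEC-IV by 1.22 ± 0.222 (adjusted p = 0.000835), also without each library. The H2-Aa promoter peak, at -114 bp, chr17:34424731-34424929, had 106 and 63.7 scaled tags in mTEC-II cells, 91.7 and 79.4 in mTEC-III cells, 68.5 and 65.1 in mTEC-I cells and 58.1 and 40.7 in mTEC-IV cells. The first mTEC-II library was high and the second about level with mTEC-I, and the difference of 0.75 ± 0.253 (adjusted p = 0.0361) was lost without either mTEC-I library, either mTEC-IV library or the first mTEC-II library (0.42 to 0.996, adjusted p = 0.0532 to 0.345).

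**Figure D5:**
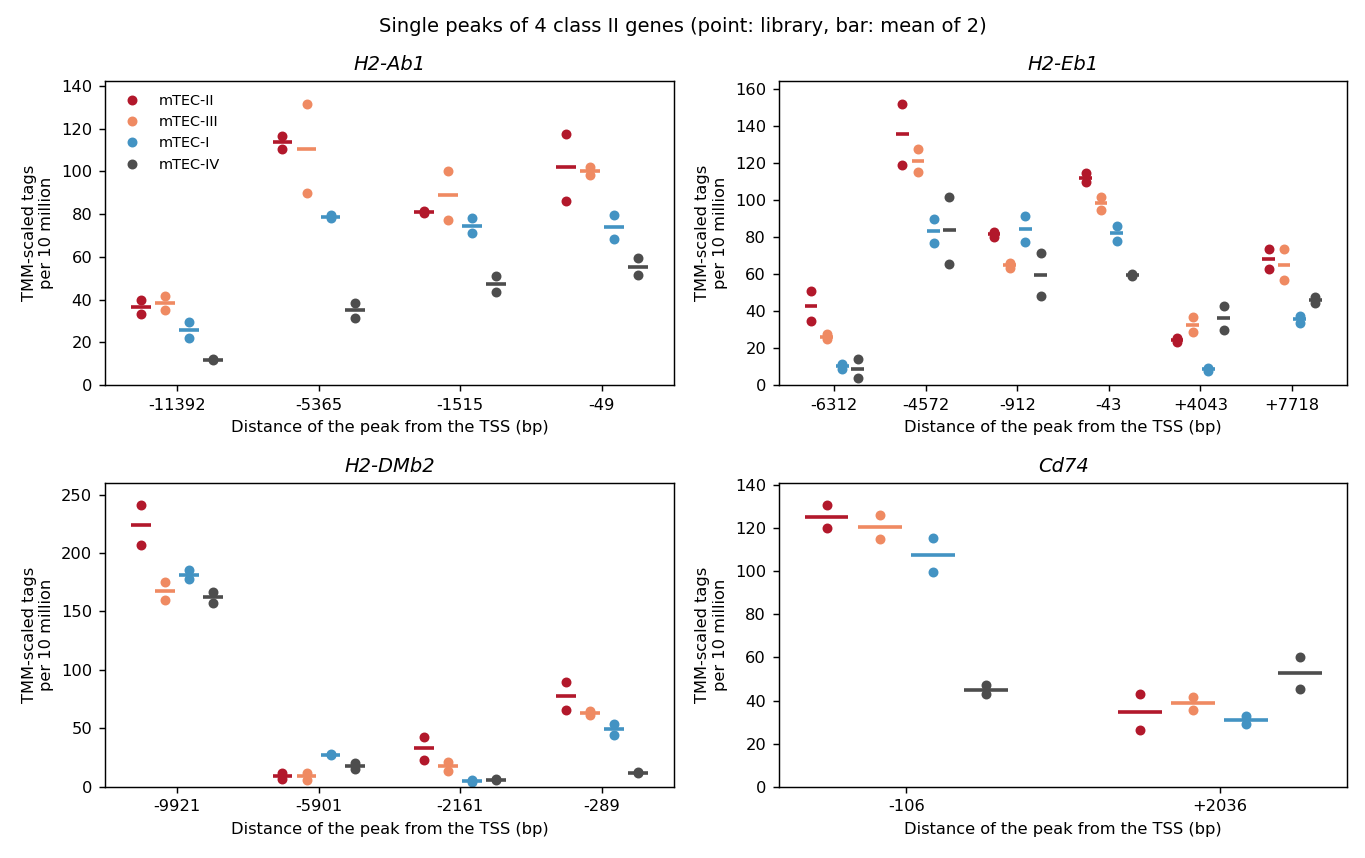
Scaled tags per 10000000 (y axis, from 0) at each peak of H2-Ab1, H2-Eb1, H2-DMb2 and Cd74, ordered by distance from the TSS in bp (x axis, evenly spaced), for mTEC-II, mTEC-III, mTEC-I and mTEC-IV. Points are libraries and bars are means of 2. In mTEC-IV the promoter peaks of Cd74 (-106) and H2-DMb2 (-289) reach at most 47.1 and 12.3 scaled tags, and the Cd74 peak at 2036 is highest in mTEC-IV.

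At Cd74 the promoter peak was lowest and the intron peak highest in mTEC-IV. The promoter peak, at -106 bp on chromosome 18, had 119.8 and 131 scaled tags in mTEC-II cells, 115 and 126 in mTEC-III cells, 115 and 99.7 in mTEC-I cells and 42.8 and 47.1 in mTEC-IV cells. The other 3 populations lay close together, well above mTEC-IV. mTEC-I exceeded mTEC-IV by 1.24 ± 0.187 (adjusted p = 0.000135) and mTEC-II exceeded it by 1.46 ± 0.187 (adjusted p = 9.69e-05), both without each library too. The peak at 2036 bp in intron 1 had 26.5 and 43.0 scaled tags in mTEC-II cells, 41.7 and 35.6 in mTEC-III cells, 29.2 and 33.1 in mTEC-I cells and 60.3 and 45.5 in mTEC-IV cells. mTEC-I minus mTEC-IV was -0.74 ± 0.287 (adjusted p = 0.0493), lost without either mTEC-I library or either mTEC-IV library (-0.93 to -0.54, adjusted p = 0.0785 to 0.344).

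At 2 other peaks mTEC-I was lowest, at H2-Eb1, or highest, at H2-DMb2. The H2-Eb1 peak at 4043 bp, chr17:34446766-34446945 in intron 2, had 23.05 and 25.3 scaled tags in mTEC-II cells, 36.7 and 28.5 in mTEC-III cells, 9.29 and 7.59 in mTEC-I cells and 42.8 and 29.6 in mTEC-IV cells. Both mTEC-I libraries lay below all others. mTEC-III exceeded mTEC-I by 1.83 ± 0.341 (adjusted p = 0.00197), and mTEC-I minus mTEC-IV was -1.96 ± 0.341 (adjusted p = 0.000317), both without each library too. mTEC-II minus mTEC-I was 1.42 ± 0.341 (adjusted p = 0.00914), lost without the second mTEC-II library or the second mTEC-I library (1.29 to 1.32, adjusted p = 0.0561 to 0.0967). The H2-Eb1 promoter peak, at -43 bp, chr17:34442658-34442881, had 109 and 114 scaled tags in mTEC-II cells, 102 and 94.7 in mTEC-III cells, 86.2 and 78.1 in mTEC-I cells and 58.8 and 59.8 in mTEC-IV cells. mTEC-IV was lowest there, and mTEC-II exceeded it by 0.91 ± 0.187 (adjusted p = 0.00191), also without each library. The H2-DMb2 peak at -5901 bp, the 1 peak called lower in the gate contrast, had 6.92 and 11.5 scaled tags in mTEC-II cells, 11.7 and 6.11 in mTEC-III cells, 26.96 and 27.6 in mTEC-I cells and 20.3 and 15.3 in mTEC-IV cells. It was highest in mTEC-I, though mTEC-I minus mTEC-IV was not called (0.60 ± 0.456, adjusted p = 0.323). Its gate difference of -1.21 ± 0.395 (adjusted p = 0.0477) was lost without either mTEC-II library, either mTEC-I library or either mTEC-IV library (-1.55 to -0.86, adjusted p = 0.0646 to 0.29).

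Of the other peaks called in the gate contrast, the H2-Eb2 promoter peak had 84.1 and 66.8 scaled tags in mTEC-II cells, 76.7 and 83.5 in mTEC-III cells, 40.7 and 32.0 in mTEC-I cells and 49.4 and 31.2 in mTEC-IV cells. mTEC-II and mTEC-III overlapped, as did mTEC-I and mTEC-IV. Its gate difference was 0.98 ± 0.222 (adjusted p = 0.00797), lost without the first mTEC-II library (0.83, adjusted p = 0.105). The H2-Ab1 peak at -11392 bp had 33.4 and 39.9 scaled tags in mTEC-II cells, 35.0 and 41.8 in mTEC-III cells, 22.1 and 29.3 in mTEC-I cells and 11.6 and 12.2 in mTEC-IV cells. mTEC-IV lay lowest, and mTEC-II exceeded it by 1.54 ± 0.311 (adjusted p = 0.00164), also without each library. Beyond 10 kb, the H2-Oa peak at -14615 bp had 34.6 and 35.3 scaled tags in mTEC-II cells, 16.7 and 24.4 in mTEC-III cells, 15.0 and 21.1 in mTEC-I cells and 14.5 and 11.6 in mTEC-IV cells, with both mTEC-II libraries highest and a gate difference of 1.15 ± 0.313 (adjusted p = 0.0209), lost without either mTEC-II library, the first mTEC-I library or the second mTEC-IV library (1.03 to 1.18, adjusted p = 0.0585 to 0.109). The H2-Aa peak at 8957 bp differed by 1.96 in the gate contrast, lost without either mTEC-II library, the first mTEC-I library or the second mTEC-IV library (1.75 to 2.05, adjusted p = 0.0617 to 0.101). The H2-Eb1 peak at -4572 bp differed by 0.70, lost without either mTEC-II library, the second mTEC-I library or the second mTEC-IV library (0.54 to 0.86, adjusted p = 0.0526 to 0.201), and that at 7718 bp by 0.74, lost without either mTEC-II library, the first mTEC-I library or the first mTEC-IV library (0.65 to 0.83, adjusted p = 0.06 to 0.139).

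The peaks that follow were called in pairs and not in the gate contrast. The H2-Ab1 peak at -1515 bp was higher in mTEC-III than in mTEC-IV by 0.89, lost without the first mTEC-III library or the second mTEC-IV library (0.71 to 0.78, adjusted p = 0.0515 to 0.0854). The H2-Ob peak at 11171 bp, intergenic, had 31.1 and 28.4 scaled tags in mTEC-II cells, 49.99 and 31.6 in mTEC-III cells, 19.003 and 19.5 in mTEC-I cells and 13.8 and 15.3 in mTEC-IV cells. mTEC-III lay highest and mTEC-IV lowest. mTEC-III exceeded mTEC-IV there by 1.39 ± 0.328 (adjusted p = 0.00704), lost without the first mTEC-III library or the first mTEC-IV library (1.07 to 1.32, adjusted p = 0.0579 to 0.0721). The H2-Ob peak at 10017 bp had 13.8 and 9.22 scaled tags in mTEC-II cells, 8.33 and 7.12 in mTEC-III cells, 1.33 and 8.67 in mTEC-I cells and 14.5 and 23.8 in mTEC-IV cells. It was highest in mTEC-IV, and mTEC-I minus mTEC-IV was -2.05 ± 0.643 (adjusted p = 0.0166), lost without either mTEC-IV library or the first mTEC-I library (-2.38 to -1.02, adjusted p = 0.0511 to 0.293). For mTEC-II minus mTEC-IV, the H2-Aa peak at 1720 bp in intron 1 differed by 0.76, lost without either mTEC-I library, either mTEC-IV library or the first mTEC-II library (0.51 to 0.80, adjusted p = 0.0633 to 0.269), and the H2-DMb2 peak at -9921 bp by 0.46, lost without either mTEC-I library, either mTEC-IV library or the first mTEC-II library (0.38 to 0.50, adjusted p = 0.0706 to 0.221).

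The ratio of a peak to the promoter peak of the gene it was assigned to depends on the scaling only through the added 1. It was tested in a fit added after seeing the data. Of 17 member ratios, 5 differed among the populations by the F test, against 24.7% of 10823 ratios. They were those of the Cd74 intron peak, the H2-Eb1 peak at 4043 bp and the H2-DMb2 peaks at -2161, -5901 and -9921 bp. The annotation placed the peaks at -5901 and -9921 bp in the H2-DMa transcript. Their ratios thus set peaks at H2-DMa against the H2-DMb2 promoter. Contrast by contrast, 1 was called in the gate contrast (5.25% of all ratios), 2 for mTEC-II minus mTEC-I (6.41%), 3 for mTEC-II minus mTEC-IV (14.2%), 1 for mTEC-III minus mTEC-I (10.0%), 3 for mTEC-III minus mTEC-IV (9.22%), 4 for mTEC-I minus mTEC-IV (22.5%) and 0 for mTEC-II minus mTEC-III (0%). Each of these calls was lost without at least 1 library.

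The log2 ratio of the Cd74 intron peak to its promoter peak was -2.14 and -1.58 in mTEC-II cells, -1.44 and -1.80 in mTEC-III cells, -1.95 and -1.56 in mTEC-I cells and 0.48 and -0.05 in mTEC-IV cells. Both mTEC-IV libraries lay near 0 and all others well below. mTEC-I minus mTEC-IV was -1.97 ± 0.454 (adjusted p = 0.0125), lost without either mTEC-I library or the first mTEC-IV library (-2.16 to -1.71, adjusted p = 0.0586 to 0.106). The peak at -9921 bp, assigned to H2-DMb2, lies in the 5′ UTR of H2-DMa. Its log2 ratio to the H2-DMb2 promoter peak was 1.41 and 1.63 in mTEC-II cells and 1.42 and 1.37 in mTEC-III cells. It was 1.76 and 1.98 in mTEC-I cells and 3.65 and 3.65 in mTEC-IV cells. mTEC-IV lay highest, and mTEC-II minus mTEC-IV was -2.13 ± 0.439 (adjusted p = 0.0138), lost without either mTEC-IV library or the first mTEC-II library (-2.13 to -2.02, adjusted p = 0.0573 to 0.0975). For the H2-Eb1 peak at 4043 bp, mTEC-I minus mTEC-IV was -2.42 ± 0.440 (adjusted p = 0.00473), lost without the first mTEC-IV library (-2.15, adjusted p = 0.0502). The ratios of the distal H2-Ab1 and H2-Aa peaks, at -5365 and -8482 bp, were not called (adjusted p = 0.403 and 0.774 by the F test).

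Over the pairs, mTEC-II was higher than mTEC-IV at 20 of the 33 peaks and lower at none (all peaks: 13.6% higher, 14.2% lower), and 6 of the 20 were called without each library. mTEC-III was higher than mTEC-IV at 15 and lower at none (all peaks: 12.3% higher, 11.2% lower), of which 5 held. mTEC-I was higher than mTEC-IV at 7 and lower at 3 (all peaks: 21% higher, 20.5% lower), of which 5 held. The share of members called in this last pair, 30.3%, is below that of all peaks. Against mTEC-I, mTEC-II was higher at 8 and lower at 1 (all peaks: 9.86% higher, 9.51% lower), of which none held, and mTEC-III was higher at 6 and lower at 2 (all peaks: 12.4% higher, 10.6% lower), of which 1 held. Between mTEC-II and mTEC-III no member peak was called by limma, edgeR or DESeq2, and 1 had an unadjusted p under 0.05 in limma (all peaks: 0.00170% higher, 0.0136% lower). Peak contrasts with mTEC-III also turned on the scaling, and those given above by limma are TMM-scaled. Under the authors' scaling, mTEC-III was higher than mTEC-IV at 5 peaks and lower at 3 (all peaks: 3995 higher, 16034 lower). It was higher than mTEC-I at 1 and lower at 12 (all peaks: 3317 higher, 26352 lower). mTEC-II was higher than mTEC-III at 8 and lower at none (all peaks: 6550 higher, 240 lower).

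The authors also called peaks in each library alone. Of the 35 merged peaks, those overlapping such a call numbered 22 and 22 for mTEC-II libraries, 14 and 18 for mTEC-III libraries, 25 and 23 for mTEC-I libraries, and 22 and 21 for mTEC-IV libraries. The lists differ in length, with 19008 and 27739 peaks for mTEC-II libraries, 10525 and 19507 for mTEC-III libraries, 44288 and 39040 for mTEC-I libraries, and 30017 and 38108 for mTEC-IV libraries. Within the 10525 best-scored peaks of each list, by the authors' score, the numbers were 20 and 14 for mTEC-II libraries, 14 and 12 for mTEC-III libraries, 13 and 13 for mTEC-I libraries, and 10 and 9 for mTEC-IV libraries. In all 8 full lists 8 of the 35 peaks were found, and every peak was found in at least 1. The Cd74 peak at 2036 bp, the H2-Eb1 peak at 4043 bp and the H2-Ob peak at 10017 bp were found only in the mTEC-IV lists. High values in mTEC-IV were thus favoured at these peaks.

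A list of 16 other genes of the class II pathway held Ciita, the RFX, NF-Y and CREB factors, proteases and the thiol reductase of the endosome, ubiquitin ligases and Nlrc5. March1 and Nlrc5 were not tested. Of the 14 tested, 7 differed by the F test, against 29.8% of all genes. In the gate contrast 1 was higher and none lower, against 4.35% and 4.66% of all genes, with a median difference of 0.01. That gene was Ifi30, the thiol reductase that helps unfold antigens, with 166 and 137 scaled tags in mTEC-II cells, 130.01 and 135 in mTEC-III cells, 114 and 109 in mTEC-I cells and 98.0 and 98.4 in mTEC-IV cells. Both mTEC-IV libraries lay lowest, and the gate difference was 0.52 ± 0.141 (adjusted p = 0.0252), lost without either mTEC-I library, either mTEC-IV library or the first mTEC-II library (0.40 to 0.54, adjusted p = 0.0692 to 0.195). Without either mTEC-III library 5 of the list were called.

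Ciita, the coactivator of class II promoters, had 61.1 and 70.7 scaled tags in mTEC-II cells, 83.3 and 36.7 in mTEC-III cells, 84.4 and 64.0 in mTEC-I cells and 16.7 and 21.2 in mTEC-IV cells. mTEC-IV lay lowest, and the other 3 populations overlapped. mTEC-I exceeded mTEC-IV by 1.91 ± 0.315 (adjusted p = 0.000201) and mTEC-II exceeded it by 1.75 ± 0.315 (adjusted p = 0.000891), both without each library too. Rfx5, which binds the X box, had 207 and 201 scaled tags in mTEC-II cells, 218 and 165 in mTEC-III cells, 151 and 126 in mTEC-I cells and 182 and 153 in mTEC-IV cells. mTEC-I lay lowest, and mTEC-II exceeded it by 0.56 ± 0.163 (adjusted p = 0.0272), lost without either mTEC-II library or either mTEC-I library (0.44 to 0.69, adjusted p = 0.0693 to 0.293). Nfyc, a subunit of NF-Y, had 235 and 210.4 scaled tags in mTEC-II cells, 172 and 211 in mTEC-III cells, 166 and 181 in mTEC-I cells and 249 and 259 in mTEC-IV cells. mTEC-IV lay highest, and mTEC-I minus mTEC-IV was -0.55 ± 0.142 (adjusted p = 0.00808), lost without either mTEC-IV library or the first mTEC-I library (-0.58 to -0.49, adjusted p = 0.0569 to 0.104).

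The chromosome 17 members span chr17:34205934-34468427 (mm9), and 18 peaks of other genes lie among them, all tested. In the gate contrast 3 were higher and 1 lower, against 9.38% and 6.25% of all peaks. The higher ones were the peaks of BC051537 at -7749 bp (1.38, lost without either mTEC-II library or the second mTEC-I library, at 1.24 to 1.40, adjusted p = 0.0528 to 0.105), Tap2 at -968 bp (2.01, lost without the second mTEC-II library, at 1.88, adjusted p = 0.0952) and Psmb9 at 7359 bp (1.60, lost without either mTEC-II library, either mTEC-I library or the first mTEC-IV library, at 1.36 to 1.77, adjusted p = 0.055 to 0.148), and the lower one was that of Psmb8 at -5187 bp (-1.46, lost without either mTEC-I library, either mTEC-IV library or the first mTEC-II library, at -1.60 to -0.81, adjusted p = 0.0691 to 0.378). The count fell to 0 without the first mTEC-II library, where the Tap2 peak no longer reached the limit on low values and was not tested. Of 6 gene sums there, 2 were called higher in the gate contrast and none lower, against 4.35% and 4.66% of all genes. Psmb9, a subunit of the immunoproteasome, had 31.1 and 34.6 scaled tags in mTEC-II cells, 23.3 and 25.5 in mTEC-III cells, 20.8 and 19.5 in mTEC-I cells and 2.18 and 7.93 in mTEC-IV cells. mTEC-II lay highest and mTEC-IV lowest, and the gate difference of 1.67 ± 0.4003 (adjusted p = 0.0122) was lost without either mTEC-II library (1.58 to 1.76, adjusted p = 0.0843 to 0.112). BC051537 differed by 0.64 ± 0.170 (adjusted p = 0.022), lost without either mTEC-II library, either mTEC-IV library or the second mTEC-I library (0.53 to 0.66, adjusted p = 0.0683 to 0.122).

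Across the 8 libraries, the mean log2 profile of the 10 members was most like those of Isx (Pearson r = 0.983), Fam89a (0.982), Nfkbia (0.977), Tnfrsf13c (0.975) and Cybrd1 (0.973), a description over libraries that fall into 4 groups. Isx, a homeobox gene, had 34.6 and 37.6 scaled tags in mTEC-II cells, 40.0 and 43.8 in mTEC-III cells, 11.5 and 7.05 in mTEC-I cells and 5.08 and 4.24 in mTEC-IV cells, while Nfkbia, an inhibitor of NF-kB, had 484 and 467 scaled tags in mTEC-II cells, 450 and 460.3 in mTEC-III cells, 365 and 373 in mTEC-I cells and 314 and 318 in mTEC-IV cells. In both, mTEC-II and mTEC-III lay above mTEC-I, and mTEC-IV lowest. Each member set against the mean of the others gave the highest r for H2-Eb1 (0.93), H2-Aa (0.90) and H2-Ab1 (0.89). It was 0.58 for H2-Ob, -0.23 for H2-DMb1 and -0.40 for H2-DMa. The H2-DMa sum used here held 8 to 39 read ends per library. It left out the peaks in its transcript that were assigned to H2-DMb2.

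B cells and dendritic cells also carry class II, so markers of other cells were measured beside these genes. Of 11 myeloid and dendritic markers, 6 had peaks within 10 kb, and Itgax, Csf1r, Lyz2, Xcr1 and Siglech had none. Their sum was 237 and 238 scaled tags in mTEC-II cells, 167 and 187 in mTEC-III cells, 149 and 159.9 in mTEC-I cells and 166 and 181 in mTEC-IV cells, highest in mTEC-II, and 1 of the 6, Flt3, was called in the gate contrast (1.49, adjusted p = 0.0169), lost without either mTEC-II library, either mTEC-IV library or the first mTEC-I library (1.28 to 1.62, adjusted p = 0.0511 to 0.141). In that contrast 4.35% of all genes were called higher. The largest item of the myeloid and dendritic sum was Zbtb46, which was not called in the gate contrast (0.48, adjusted p = 0.0824). mTEC-II exceeded mTEC-I at Itgam (3.04, adjusted p = 0.0133), Cd68 (2.34, adjusted p = 0.0168) and Flt3 (2.36, adjusted p = 0.00154), against 6.50% of all genes. With TMM scaling mTEC-III was called higher than mTEC-I at the same genes. Zbtb46, Spi1 and Batf3 were not called in any pair, and mTEC-II minus mTEC-IV was called at none of the 6. Of the B cell markers reported here, 3 had peaks and Ms4a1 and Pax5 had none, with a sum of 62.2 and 96.0 scaled tags in mTEC-II cells, 65.0 and 91.6 in mTEC-III cells, 85.3 and 57.5 in mTEC-I cells and 136 and 142 in mTEC-IV cells, highest in mTEC-IV. Most of that sum was Ebf1, which was not called in any pair. Cd79a, a chain of the B cell receptor complex, had 4.61 and 0.763 scaled tags in mTEC-II cells, 3.34 and 7.12 in mTEC-III cells, 0.887 and 0 in mTEC-I cells and 28.3 and 25.4 in mTEC-IV cells. Its partner Cd79b had 2.30 and 6.91 scaled tags in mTEC-II cells, 6.67 and 12.2 in mTEC-III cells, 12.4 and 3.79 in mTEC-I cells and 28.3 and 31.7 in mTEC-IV cells. Both were highest in mTEC-IV, without overlap. mTEC-II minus mTEC-IV was -3.14 for Cd79a (adjusted p = 0.00722), lost without the second mTEC-II library (-2.31, adjusted p = 0.0769), and -2.60 for Cd79b (adjusted p = 0.00594), lost without either mTEC-IV library or the first mTEC-II library (-2.67 to -1.93, adjusted p = 0.0854 to 0.0941). mTEC-I minus mTEC-IV was -4.34 for Cd79a (adjusted p = 0.000293), and -1.95 for Cd79b (adjusted p = 0.0226), lost without either mTEC-IV library or the second mTEC-I library (-2.03 to -1.21, adjusted p = 0.147 to 0.324).

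Of 9 thymocyte markers, 5 had peaks and Ptprc, Cd3e, Cd3g and Cd8a had none, with a sum of 122 and 111 scaled tags in mTEC-II cells, 95.0 and 105 in mTEC-III cells, 158 and 145 in mTEC-I cells and 144 and 149.7 in mTEC-IV cells, lowest in mTEC-III. Bcl11b, a T lineage factor and the largest item of that sum, was highest in mTEC-I, and mTEC-I minus mTEC-IV was 0.97 (adjusted p = 0.00131). Of the others, Lck and Cd4 ran the opposite way. Cd2 was not called in any pair (mTEC-I minus mTEC-IV -0.86, adjusted p = 0.0941), and Rag1 had 0 scaled tags in every library. Lck, a kinase of T cell signalling, had 3.46 and 4.61 scaled tags in mTEC-II cells, 10.01 and 7.12 in mTEC-III cells, 0 and 0.541 in mTEC-I cells and 29.8 and 24.3 in mTEC-IV cells. Cd4, a coreceptor of T cells, had 0 and 1.54 scaled tags in mTEC-II cells, 0 and 0 in mTEC-III cells, 0.887 and 0 in mTEC-I cells and 24.7 and 17.98 in mTEC-IV cells. Both were highest in mTEC-IV, without overlap. mTEC-II minus mTEC-IV was -2.48 for Lck (adjusted p = 0.0111), lost without the first mTEC-II library or the second mTEC-IV library (-2.62 to -2.28, adjusted p = 0.0615 to 0.135), and -3.79 for Cd4 (adjusted p = 0.00746), lost without the first mTEC-II library (-3.08, adjusted p = 0.0599). mTEC-I minus mTEC-IV was -4.49 for Lck (adjusted p = 3.90e-05), and -4.01 for Cd4 (adjusted p = 0.00304), lost without the second mTEC-I library (-3.52, adjusted p = 0.0781). Cd79a and Cd4 could not be tested without either mTEC-IV library, nor Lck without the first, since they no longer reached the limit on low values. Cd79a and Cd4 reached 10 scaled tags only in the mTEC-IV libraries, and Lck only there and in the first mTEC-III library. These 3 genes were thus tested because they were high in mTEC-IV, and their p-values are no independent evidence of it. Cd79a, Cd79b, Lck and Cd4 were highest in mTEC-IV, the population with the lowest share of read ends in class II peaks, and their part in the result was not tested.

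Of 13 thymic epithelial markers 12 had peaks, all but Ccl21a, and of 4 cortical ones 3, all but Psmb11.

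In the gate contrast Aire, the regulator of self antigens in mature mTEC, was higher (1.38, adjusted p = 0.00155), also without each library. The keratin gene Krt14 was higher (0.67, adjusted p = 0.0295), lost without either mTEC-I library, either mTEC-IV library or the second mTEC-II library (0.40 to 0.73, adjusted p = 0.0636 to 0.325), and so was the cortical marker Prss16 (0.60, adjusted p = 0.0275), lost without either mTEC-II library, either mTEC-IV library or the first mTEC-I library (0.50 to 0.65, adjusted p = 0.079 to 0.156). Krt5 was lower (-0.96, adjusted p = 0.0404), lost without either mTEC-I library, either mTEC-IV library or the second mTEC-II library (-1.04 to -0.63, adjusted p = 0.0563 to 0.282). The tuft cell genes Pou2f3 (-0.94, adjusted p = 0.00746) and Avil (-2.53, adjusted p = 0.0112) were lower, Pou2f3 lost without the first mTEC-II library (-0.76, adjusted p = 0.118) and Avil without the first mTEC-II library (-1.65, adjusted p = 0.147). Avil could not be tested without either mTEC-IV library. It reached 10 scaled tags only in mTEC-IV, and was thus tested because it was high there. Against mTEC-I and mTEC-IV singly, mTEC-II differed by -0.25 and 1.59 at Krt14 and by -2.26 and 0.34 at Krt5. At Prss16 it differed by 0.38 and 0.82, at Pou2f3 by -0.43 and -1.44, and at Avil by -0.44 and -4.62. Only the difference larger in size was called at each of these genes. Aire was called higher than in both (1.76 and 0.997). The part of other cells and of mTEC stages in the differences at the class II genes was not tested.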

How the data were processed

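Accessibility was measured by ATAC-seq in 8 libraries, 2 for each of 4 populations, grouped by the sample titles. The tools were HOMER, Picard 1.108 and bcl2fastq 2.15.0.4 and the genome mm9, per the submitters' processing notes. Not given in the sources used here are the aligner and the handling of duplicates, of multiply matching reads and of the transposase offset. The authors deposited a merged, annotated peak table whose signal is in tags per 10000000 total tags, per the file headers. They also deposited a peak list per library with a findPeaks score, per the file headers, which served only to rank peaks within a list.

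Every deposited value was a whole multiple of 1 read end, within 0.02 read ends, in 100% of values. Values were scaled by TMM over all merged peaks. Features that reached 10 tags per 10000000 in 2 or more libraries were fitted as log2(value + 1) with limma-trend (limma 3.58.1, R 4.3.3), 1 coefficient per population, with Benjamini-Hochberg adjustment over all features. This scale understates changes of low values. Every adjusted p is limma's. edgeR 4.0.16 and DESeq2 1.42.0 on the recovered read ends were alternatives. On simulated data, 26 of 50 genes raised by 1 on the log2 scale and 50 of 50 raised by 2 were recovered in the gate contrast, and 8 and 50 of 50 peaks. The raised features were drawn from those with over 50 expected read ends. These counts do not speak for members with fewer, such as H2-Oa and H2-DMa. All simulated features shared 1 setting of the spread, and those not changed had the same rate in every population. In the real data 29.8% of genes and 49.3% of peaks differed by the F test. The recovered counts are therefore not the power of the tests on these data. The genes, lists and tests were chosen with earlier results of these data known. Named were all members, each called member peak, up to 4 pathway genes past the F test by range, neighbours and markers called in the gate contrast, and the 5 genes most like the members. Markers named for other pairs were chosen after their values were seen. 1 marker of the lists is not reported here.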

Additional observations from a re-analysis of the deposited data

How the results depend on the processing

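Of the 7 member genes called in the gate contrast, 1 was called under the authors' scaling to total tags and 3 with sums within 1 kb of the TSS, and the cause was not tested. Leaving out 1 library at a time gave 4 to 7 genes and 4 to 18 peaks (17 with all libraries) in the gate contrast, 6 to 8 genes (7 with all) and 15 to 22 peaks (22) in the F test, and 13 to 23 gene calls (22) and 40 to 61 peak calls (62) over the 6 pairs, where an arm with 1 library was taken to vary like the others. The pathway count in the gate contrast, 1, ran from 0 to 5 and that of neighbouring peaks, 4, from 0 to 5. The pathway count was 0 under the authors' scaling, 2 with a pseudocount of 5, 3 with TMM factors from gene sums (chosen after seeing the data), 6 with sums at any distance, and 4 with TMM factors from promoter peaks, 4 with edgeR and 4 with DESeq2. H2-Eb1 reversed in mTEC-III minus mTEC-I to -0.56 under the authors' scaling and -0.0317 with sums within 1 kb, and in mTEC-III minus mTEC-IV to -0.14 under the authors' scaling. Member peaks in the per-library lists numbered 167 over 8 libraries, and 105 with lists of equal length. For single genes, 559 values were counted as unchanged, 77 lost the call and 3 called differences reversed. A change of direction at a difference not called with the main settings was counted as unchanged.

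The replicate numbers share no stated source, and deviations of same-numbered libraries correlated between -0.0140 and 0.0329 over the 6 pairs of populations. With the replicate block 6 genes and 16 peaks were called in the gate contrast, 7 genes and 21 peaks in the F test, 22 gene and 57 peak calls over the pairs, 2 pathway genes and 3 neighbouring peaks.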
